A study of Mus musculus with 30 samples.

Results

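The nuclear genes of the mitochondrial respiratory chain and ATP synthase were followed in mouse primary visual cortex (V1) at postnatal days 14, 28 and 60 (P14, P28 and P60). The set was selected by symbol: every probe set with a single annotated gene symbol that began with Nduf, Uqcr, Atp5, or Cox followed by a digit from 4 to 8, or that was Sdha, Sdhb, Sdhc or Sdhd. It held 80 genes on 145 probe sets, of 15965 genes on 29197 probe sets with 1 symbol. The rule uses names only. By prefix, the genes were assigned to complex I (Nduf), complex II (Sdh), complex III (Uqcr), complex IV (Cox) and complex V (Atp5).

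The samples were V1 RNA of mice reared in standard conditions, from 3 litters of P14, 3 of P28 and 4 of P60. The labels name no strain, genotype, sex or treatment, and do not give the number of animals behind a sample. Each litter was hybridised to the 3 Affymetrix arrays of the MG-U74 version 2 set, called chips A, B and C here, which gave 30 arrays. Values are MAS5 signals, a linear brightness per probe set, with the 2% trimmed mean of every array at 500. P14 lies around eye opening and P60 in young adulthood. At P28 the cortex is in its critical period, when closing 1 eye shifts the response of V1 neurons to the other.

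Electrons from NADH enter the chain at complex I and electrons from succinate at complex II, which is also the succinate dehydrogenase of the TCA cycle. Complex III passes them to cytochrome c and complex IV to oxygen, and complex V uses the resulting proton gradient to make ATP. Neurons spend much of that ATP on ion pumping and synaptic transmission. Most subunits are encoded in the nucleus, and the subunits encoded in mitochondrial DNA have other symbols and are not in the set.

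In the means over litters, most respiratory chain genes were lower at P60 than at P28, by a small amount, and none of these differences passed the test across all probe sets. The median log2 difference over the 75 tested genes was -0.32, beside -0.02 over all 11240 tested genes. Of the 75 genes, 61 (81.3%) had a lower mean at P60, beside 52.6% of all tested genes. Between P14 and P28 the median difference was 0.08, beside 0.04 over all genes. Only Sdhd, a membrane anchor of complex II, and Uqcrb, a subunit of complex III, passed the test in any comparison with all litters, and both fell between P14 and P60. Log2 values here are differences of log2(signal + a constant per chip type), so they understate the change of dim probe sets.

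P14 litter 1 stood apart from all other samples. Its ratio of 3' to 5' signal was 9.57 to 12.2 for Gapdh and 12.2 to 12.8 for Actb over the 3 chips, against 0.741 to 1.32 and 1.04 to 1.5 on the other 27 arrays. Of the 103 tested respiratory chain probe sets, 4 were more than 2-fold higher and 16 more than 2-fold lower in this litter than in the mean of P14 litters 2 and 3. That is 19.4% of them, beside 21.8% of all tested probe sets, while litters 2 and 3 differed by more than 2-fold in 1 respiratory chain probe set (0.971%) and in 4.35% of all. Both directions occurred within complex III: Uqcr11 had a signal of 60.3 against 5028 and 5491 in litters 2 and 3, and Uqcrc2 had 13004 against 1796 and 2467. The main results that use P14 are therefore given with and without this litter. A restricted set, chosen after the data were seen, also leaves out the arrays least like the others at P60 (litters 1 and 4 on chips A and B, litter 2 on chip C). On chips A and B it keeps only litters 2 and 3 at P14 and litters 2 and 3 at P60. Because those arrays were left out for differing in these same data, adjusted p-values in the restricted set are not independent support.

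**Figure D1:**
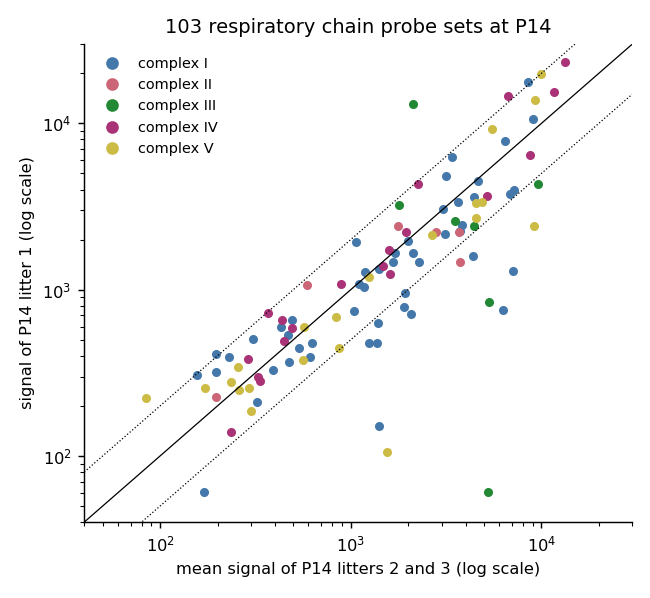
Signal of the 103 tested respiratory chain probe sets in P14 litter 1 (y axis) against the mean signal of P14 litters 2 and 3 (x axis), both on log scales and coloured by complex. The solid line marks equal signal and the dotted lines a 2-fold difference. 4 points lie above the upper dotted line and 16 below the lower one.

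The precision of each value is limited by the small number of arrays. Of the 80 genes, 75 were tested, on 103 of 145 probe sets: 50 for complex I, 6 for complex II, 7 for complex III, 19 for complex IV and 21 for complex V. Cox7a1, Cox8a, Ndufa1, Ndufaf2 and Ndufc2 were too dim on every probe set to be tested. A further 16 probe sets named a gene of the set together with another symbol, among them those of Ndufs5, Ndufs6, Ndufa11, Ndufb4 and Cox7c, and were left out. The 3 genes that mark the set were well above background: Sdhd, Uqcrb and Ndufc1 on chip A lay between 690 and 3352 on every array, against 98.4 for the 95th percentile of the Bacillus control probe sets.

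The place of each litter shows how the set as a whole lay. For each gene, the log2 value of a litter was set against the gene's mean over the 10 litters, and the median was taken over the 75 genes. At P28 the medians were 0.28, 0.19 and 0.05 in litters 1 to 3. At P14 they were -0.10, 0.07 and 0.07, and at P60 they were -0.12, 0.03, -0.31 and -0.17 in litters 1 to 4. All P28 litters were above all P60 litters, though P28 litter 3 (0.05) and P60 litter 2 (0.03) were close, and the SD between litters of an age was 0.123. P60 litter 3 was the lowest of the 10 litters in 26 of the 75 genes (34.7%), beside 7.59% of all genes, and P28 litter 1 was the highest in 20 (26.7%), beside 5.84% of all genes. Over all tested genes the litter medians stayed between -0.03 and 0.04.

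**Figure D2:**
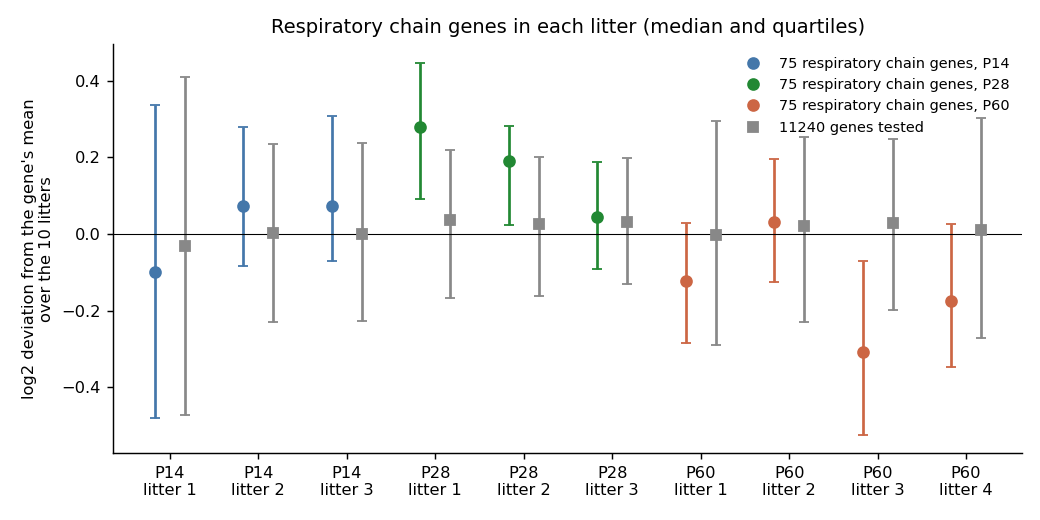
Median (points) and quartiles (bars) over genes of the log2 deviation from the gene's mean, for each of the 10 litters (x axis). Coloured circles are the 75 respiratory chain genes and grey squares all 11240 tested genes. The respiratory chain medians run from -0.31 in P60 litter 3 to 0.28 in P28 litter 1, while the grey medians stay between -0.03 and 0.04.

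The comparison of P60 with P28 sets the young adult against the critical period. By complex, the median difference was -0.36 in complex I (32 of 36 genes lower in the mean), -0.31 in complex II (3 of 4), -0.45 in complex III (7 of 7), -0.18 in complex IV (9 of 14) and -0.30 in complex V (10 of 14). Over all tested genes, 52.6% were lower in the mean. No respiratory chain probe set passed limma's test after Benjamini-Hochberg adjustment, where the background is 0% (0 of 20724 probe sets), and the smallest adjusted p in the set was 0.894. At an unadjusted p under 0.05 there were 12 of 103 respiratory chain probe sets and 1125 of all 20724, or 10 of the 75 genes and 639 of all 11240 genes. Without P14 litter 1, 33 of the 75 genes and 1111 of 11091 genes had such a p. In the restricted set these were 26 of 75 and 852 of 10697, and without P60 litter 3 they were 5 of 75 and 1064 of 11132. Leaving out P60 litter 3 gave a median of -0.24 over the set, and the restricted set -0.25. Leaving out P14 litter 1 kept it at -0.32, as it had to. P14 litters enter this comparison only through the estimate of the spread, so leaving out P14 litter 1 changes its p-values and not its differences. In bulk tissue, fewer cells of a type and less RNA per cell cannot be told apart.

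Probe sets in which the litters of both ages did not overlap were counted next. All 4 P60 litters lay below all 3 P28 litters in 26 of 103 probe sets (25.2%), for 23 genes, where the background is 4.46%. They lay above in 2, for Cox4i1 and Cox8b, where the background is 3.9%. The one of Cox4i1 was a second probe set, and on the kept one the ages overlapped. Of the 26, 15 were of complex I (of 50 tested), 2 of complex II (of 6), 2 of complex III (of 7), 1 of complex IV (of 19) and 6 of complex V (of 21). Without P60 litter 3 the lower count was 27 (background 9.39%), and in the restricted set it was 32 (background 9.1%). No test was made of these counts.

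Brightness moved with this pattern. Tested genes were ranked by mean log2 signal within a chip type and cut into 4 classes of equal size, and 54 of the 75 respiratory chain genes (72%) fell in the brightest class. In that class the median difference between P60 and P28 over all 2811 genes was -0.11, with 69.1% lower, and over its 54 respiratory chain genes it was -0.37, with 51 lower. In the dimmest class the median over all genes was 0.09. Groups did not overlap, with P60 lower, in 9.14% of all genes of the brightest class and in 20 of its 54 respiratory chain genes (37.0%). After quantile normalisation the brightest class had medians of -0.04 over all genes and -0.28 over the 54, of which 50 were lower. The part of brightness in the difference was not tested.

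**Figure D3:**
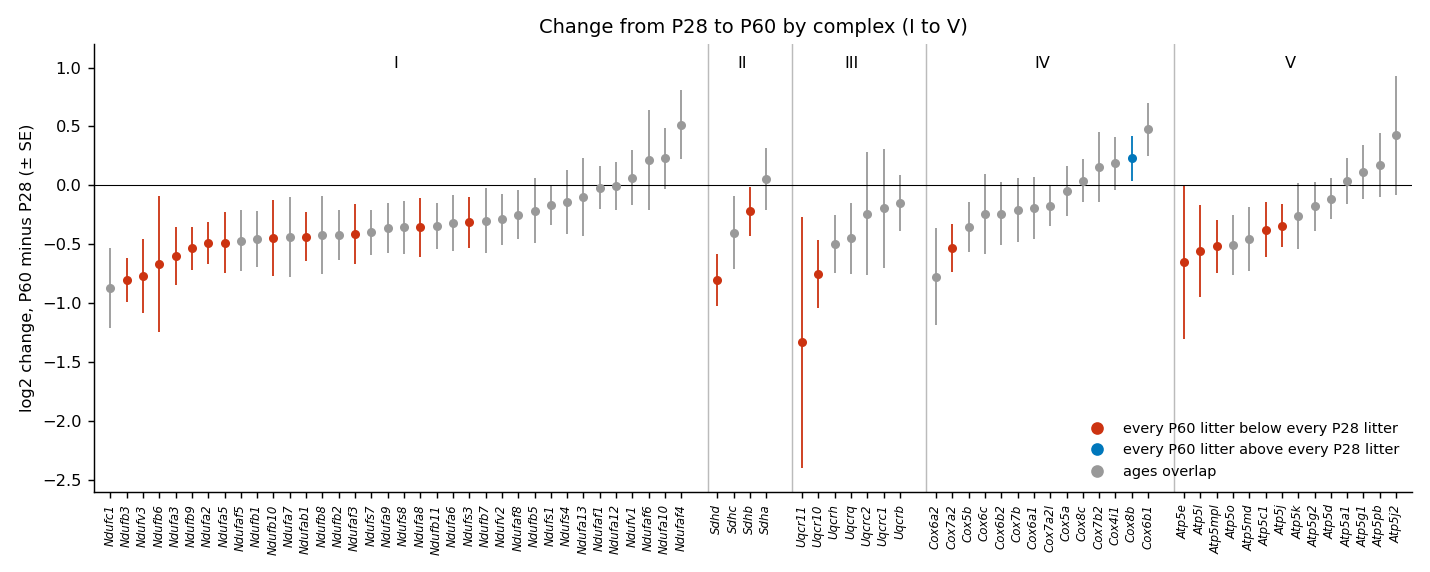
Log2 difference between P60 and P28 (y axis, mean ± SE from limma) for the probe set kept for each of the 75 genes, ordered within complex I to V. Red marks genes in which every P60 litter was below every P28 litter, blue the reverse, and grey genes whose litters overlap. Most points lie below 0, all 7 of complex III among them.

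Complex I is the largest of the complexes, with catalytic core subunits and many accessory subunits around them. Of its 36 tested genes, 30 encode subunits and 6 are Ndufaf assembly factors, which help to build the complex and are not part of it. Between P28 and P60 the median was -0.38 over the subunits (28 of 30 lower) and -0.13 over the assembly factors (4 of 6 lower). Of 6 tested core subunits, 5 lay above the subunit median and Ndufs7, at -0.40, below it. Ndufv1, which binds the flavin, differed by 0.07, Ndufs1, Ndufv2 and Ndufs8, which carry iron-sulphur clusters, by -0.17, -0.29 and -0.36, and Ndufs3 by -0.31. Other tested probe sets differed by 0.06 and -0.59 for Ndufs1 and by 0.03 for Ndufv2.

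Ndufb3, an accessory subunit of the membrane arm, was lower at P60 in every litter. Its signals were 1664, 1753 and 1676 at P14, 1711, 1720 and 2415 at P28, and 1170, 994, 985 and 1199 at P60. All P60 litters were below every younger litter, and P14 and P28 overlapped. The mean signal was 1949 ± 404 (SD, n = 3) at P28 and 1087 ± 113 (SD, n = 4) at P60. The log2 difference was -0.81 (SE 0.187, limma adjusted p = 0.894) from P28 to P60 and -0.63 (adjusted p = 0.149) from P14 to P60, or -0.64 (adjusted p = 0.0835) without P14 litter 1.

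Ndufc1, another accessory subunit, had signals of 2150, 2914 and 3352 at P14, 2946, 3273 and 2079 at P28, and 1718, 2498, 1391 and 764 at P60. P60 litter 2 lay inside the range of the younger litters and P60 litter 4 far below it. The log2 difference between P14 and P60 was -0.90 (SE 0.341, limma adjusted p = 0.238), -1.07 (adjusted p = 0.121) without P14 litter 1 and -0.59 without P60 litter 4. A second probe set for Ndufc1, on chip C, differed by -0.01 over the same ages, so the probe sets of this gene disagree.

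Ndufb6, an accessory subunit, had 751 in P14 litter 1, 6441 and 6165 in the other P14 litters, 5904, 5419 and 4869 at P28, and 2876, 4454, 3333 and 3024 at P60. Apart from P14 litter 1, the ages did not overlap and each was below the one before. With all litters the difference from P14 to P60 was 0.11, and without P14 litter 1 it was -0.90 (limma adjusted p = 0.0314). Ndufb10, also an accessory subunit, had 715, 2169 and 1973 at P14, 2826, 2591 and 2511 at P28, and 1710, 2313, 1732 and 1999 at P60. All P28 litters were above every litter of the other ages. Its difference from P14 to P28 was 0.84 (adjusted p = 0.59), and 0.35 (adjusted p = 0.532) without P14 litter 1.

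Ndufb5, an accessory subunit of the membrane arm, had a mean signal of 11601 ± 5371 (SD, n = 3) at P14, 9701 ± 1207 (SD, n = 3) at P28 and 8421 ± 1544 (SD, n = 4) at P60, and its ages overlapped. Its probe set carries the suffix f, by which Affymetrix marks sets that may also detect related sequences.

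Complex II joins the chain to the TCA cycle through Sdha (flavoprotein) and Sdhb (iron-sulphur protein), which Sdhc and Sdhd anchor in the inner membrane. Sdhd fell between P14 and P60. Its signals were 2210, 2726 and 2886 at P14, 1647, 2424 and 1930 at P28, and 814, 1222, 1256 and 1231 at P60. Every P60 litter was below every P14 and every P28 litter, while P14 and P28 overlapped. The mean was 2607 ± 354 (SD, n = 3) at P14, 2000 ± 393 (SD, n = 3) at P28 and 1131 ± 211 (SD, n = 4) at P60, a log2 difference of -1.19 (SE 0.219, limma adjusted p = 0.0418). The difference from P28 to P60 was -0.80 (adjusted p = 0.894).

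The call for Sdhd was near the threshold. Its adjusted p was 0.0136 without P14 litter 1, 0.0428 without P60 litter 3 and 0.0181 in the restricted set, and lay between 0.0661 and 0.139 when any 1 of the other 8 litters was left out. A second Sdhd probe set, on chip C, differed by 0.24 between P14 and P60. Its mean was below the Bacillus level of that chip at P14 and P28, so it is no measure of the size.

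The other genes of complex II showed no called difference. Sdha had 1068, 548 and 624 at P14, 768, 500 and 906 at P28, and 724, 606, 882 and 746 at P60, with all ages overlapping and a difference of 0.05 from P28 to P60. Sdhb had 3714, 4116 and 3924 at P28 and 3341, 3559, 3363 and 3172 at P60. All P60 litters were below all P28 litters, by -0.22 in log2, and P14 spanned both ages, with 2230 in litter 1 and 3931 and 3490 in litters 2 and 3. On a second Sdhb probe set, on chip B, P28 and P60 overlapped, with a difference of -0.36. From P14 to P60 that probe set differed by -0.53 (limma adjusted p = 0.259), and the kept one by 0.10. Sdhc had 3768, 3551 and 3923 at P28 and 2320, 3613, 3039 and 2497 at P60, a difference of -0.40, and its ages overlapped.

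Complex III carries electrons from ubiquinol to cytochrome c. Uqcrb, its ubiquinone-binding subunit, fell between P14 and P60. Its signals were 3214, 1757 and 1815 at P14, 1054, 829 and 815 at P28, and 839, 690, 982 and 727 at P60. Every P14 litter was above every older litter, and P28 and P60 overlapped, so this gene was already low at P28. The mean was 2262 ± 825 (SD, n = 3) at P14, 899 ± 134 (SD, n = 3) at P28 and 809 ± 131 (SD, n = 4) at P60.

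The log2 difference of Uqcrb between P14 and P60 was -1.40 (SE 0.24, limma adjusted p = 0.0318), and -1.12 (adjusted p = 0.017) without P14 litter 1. Between P14 and P28 it was -1.25 (adjusted p = 0.211), and in the restricted set -0.97 (adjusted p = 0.0431, where 0.647% of all probe sets were called lower). Leaving out any 1 of the 8 litters other than P14 litter 1 and P60 litter 3 gave an adjusted p between 0.059 and 0.116 for P14 against P60. The Uqcrb probe set carries the suffix f and may also detect related sequences.

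Uqcr10 and Uqcr11, small subunits at the edge of complex III, were lower at P60. Uqcr10 had 2417, 4551 and 4323 at P14, 4212, 3298 and 2735 at P28, and 2717, 2274, 1427 and 1727 at P60. Its P60 litters lay just below its P28 litters, and its difference from P14 to P60 was -0.86 (limma adjusted p = 0.187), and -1.15 (adjusted p = 0.0326) without P14 litter 1. Uqcr11 had 60.3, 5028 and 5491 at P14, 4344, 3507 and 3015 at P28, and 1426, 2219, 1047 and 1151 at P60. Apart from P14 litter 1 its ages did not overlap and stood in descending order. Its difference from P14 to P60 was 0.03 (adjusted p = 0.989) with all litters and -1.88 (adjusted p = 0.0064) without P14 litter 1.

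The remaining members of complex III overlapped between P28 and P60. Uqcrq, a small subunit, had 9062, 8272 and 7183 at P28 and 6574, 7814, 4240 and 5732 at P60, a difference of -0.45. The core proteins Uqcrc1 and Uqcrc2 had differences of -0.20 and -0.24, and the hinge protein Uqcrh -0.50.

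Complex IV, cytochrome c oxidase, differed least between P28 and P60 in the median. Its litter medians at P60 were 0.01, 0.06, -0.31 and 0.09, so litter 3 alone lay below the litters of P28, which had 0.15, 0.07 and 0.01. Cox7a2, an accessory subunit, had 9033, 8535 and 7281 at P28 and 6072, 7001, 4903 and 5042 at P60, with no overlap and a difference of -0.53 (limma adjusted p = 0.894). Its P14 signals were 6409, 8772 and 8691. Cox6a2, the heart and muscle form of a subunit, had 722, 347 and 389 at P14, 425, 515 and 376 at P28, and 252, 247, 89.3 and 517 at P60. The P60 litters spread widely, and the difference of -0.77 from P28 became -0.40 without P60 litter 3, -1.11 without P60 litter 4 and -1.31 in the restricted set.

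Cox6c, an accessory subunit, had 14580, 6695 and 6617 at P14, 7239, 6103 and 5657 at P28, and 7490, 3961, 3680 and 7266 at P60. P60 litters 1 and 4 lay at the upper end and litters 2 and 3 well below, and the difference from P14 to P60 was -0.70 (limma adjusted p = 0.336). It was -0.32 (adjusted p = 0.551) without P14 litter 1 and -0.80 (adjusted p = 0.039) in the restricted set. That set leaves out P60 litters 1 and 4, the high ones of this gene, so its lower value follows from the choice of arrays. Cox6b2, known as a testis form, had 281, 339 and 330 at P14 and 538, 665 and 521 at P28, with no overlap. The difference was 0.78 (limma adjusted p = 0.504), or 0.70 (adjusted p = 0.463) without P14 litter 1. This Cox6b2 probe set, on chip C, carries the suffix r, for probes chosen under relaxed rules. Its P14 mean of 317 was not far above the Bacillus level of that chip, 252. The Cox6b2 probe sets on chip A were too dim to be tested and did not rise. Their means were 61.0, 14.5 and 79.2 at P14 and 43.7, 10.6 and 74.3 at P28, under the Bacillus level of chip A. Cox6a1, the widely expressed form, had a mean of 16603 ± 5915 (SD, n = 3) at P14, 14295 ± 1693 (SD, n = 3) at P28 and 12720 ± 3003 (SD, n = 4) at P60, and its ages overlapped.

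**Figure D4:**
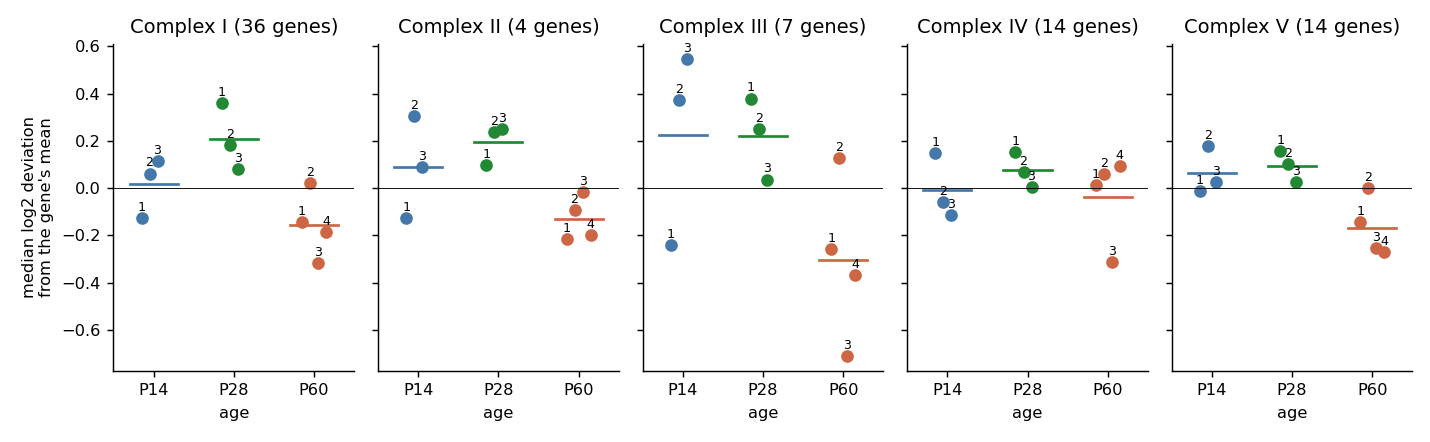
Median log2 deviation from the gene's mean over the tested genes of complex I to V (panels), for each litter (numbered points) at P14, P28 and P60 (x axis). Lines are the means over litters. All P60 litters are below all P28 litters in complexes I, II and V, and in complex III P60 litter 2 lies above P28 litter 3. In complex IV only P60 litter 3, at -0.31, is below the P28 litters.

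Complex V, ATP synthase, consists of the catalytic F1 head with its stalk and the membrane-bound FO part. In the head and stalk, the alpha subunit Atp5a1 had 8368, 9045 and 7894 at P28 and 8363, 8337, 8516 and 9413 at P60, a difference of 0.04, and its P14 signals were 13732, 9407 and 9082. Every P14 litter was above every P28 litter. Atp5c1, the rotating gamma subunit, had 9194, 5872 and 5084 at P14, 6253, 5108 and 5232 at P28, and 3871, 5060, 4509 and 3638 at P60. All P60 litters were below all younger litters, though by little, and the difference from P14 was -0.61 (limma adjusted p = 0.237), or -0.36 (adjusted p = 0.276) without P14 litter 1.

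Atp5e, the epsilon subunit of the stalk, had 106, 1479 and 1630 at P14, 1812, 1337 and 1381 at P28, and 939, 1074, 908 and 839 at P60. Its P60 litters were below all other litters except P14 litter 1. Its difference from P28 to P60 was -0.65 (SE 0.65, limma adjusted p = 0.927), with an error that includes the spread of P14 litter 1, and without that litter the adjusted p was 0.408.

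In the membrane part, Atp5l, the g subunit, had 2411, 9089 and 9157 at P14, 8305, 7277 and 6403 at P28, and 4865, 5932, 4582 and 4518 at P60. Without P14 litter 1 its ages did not overlap, and the difference from P14 to P60 was -0.88 (limma adjusted p = 0.0244). A second Atp5l probe set on chip A, with the suffix f, differed by 0.91 between P14 and P60 (adjusted p = 0.348). Atp5mpl, a small membrane subunit, had 3381, 4702 and 5100 at P14, 4528, 2945 and 3138 at P28, and 2852, 2373, 1957 and 2554 at P60. All P60 litters were below all others, and the difference from P14 was -0.83 (adjusted p = 0.128), or -1.01 (adjusted p = 0.0286) without P14 litter 1. Atp5md, another small membrane subunit, had 19841, 9514 and 10336 at P14, 9804, 8782 and 6987 at P28, and 6918, 7267, 5111 and 5584 at P60. Its P60 litters were below every P14 litter and its difference was -1.02 (adjusted p = 0.123), or -0.68 (adjusted p = 0.0819) without P14 litter 1, on a probe set with the suffix f.

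**Figure D5:**
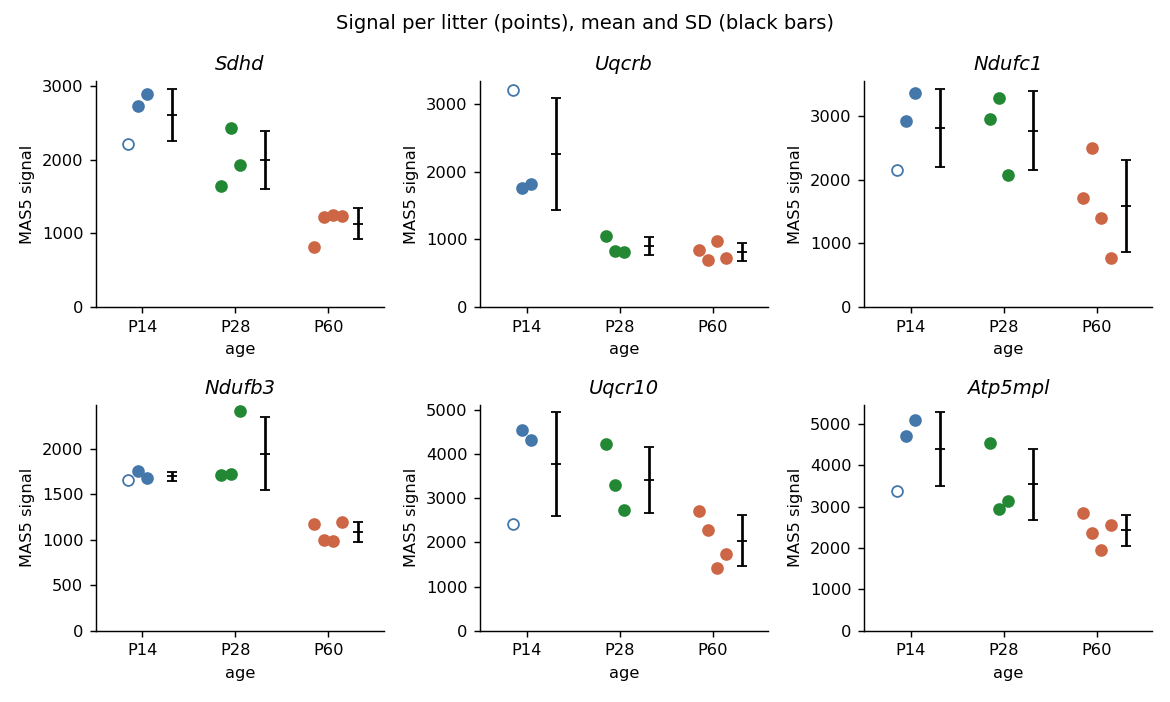
MAS5 signal (y axis, from 0) of 6 respiratory chain genes in each litter at P14, P28 and P60, with the mean and SD as black bars. The open circle is P14 litter 1. In Sdhd, Ndufb3, Uqcr10 and Atp5mpl all P60 points lie below all P28 points, in Uqcrb the drop lies between P14 and P28, and in Ndufc1 the P60 points spread from 764 to 2498.

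Promoter sequence was looked at for letters that are known from respiratory chain promoters. NRF1, GABP (an ETS family factor also called NRF2) and YY1 are factors known to act on many of these genes. RefSeq promoters (GRCm38.p6, 250 bases before to 50 bases after the start) matched 66 of the 80 genes, with 71 promoters, and both strands were searched. The ETS-type letters CCGGAAG stood in 18 of 71 promoters (25.4%), beside 8.86% of all 32851 promoters and 11.6% of the protein-coding ones. The NRF1-type core GCATGCGC stood in 11 (15.5%), beside 2.71% of all. The YY1-type letters AAGATGGC stood in 10 (14.1%), beside 2.75% of all. A match is a description of letters, and nothing here measures binding.

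The promoters of Sdhd, Uqcr11 and Atp5l, 1 gene each of complexes II, III and V, are shown because they hold a match and their P60 signals lay below every P28 litter. The 30 bases around the match of Ndufc1 are added as the example of complex I. Capitals mark the matches that lie wholly within a stretch, and each stretch is read 5' to 3' on the strand of the gene. Sdhd (chr9:50603850-50604099, minus strand, the 250 bases before the start) holds the reverse complement of the ETS-type letters, starting 46 bases before the start.
Sdhd: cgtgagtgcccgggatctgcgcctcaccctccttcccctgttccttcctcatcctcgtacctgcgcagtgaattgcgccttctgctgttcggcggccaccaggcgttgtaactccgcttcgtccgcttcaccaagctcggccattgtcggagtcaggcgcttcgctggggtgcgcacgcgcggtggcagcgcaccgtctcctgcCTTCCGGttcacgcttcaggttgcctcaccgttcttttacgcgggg
Uqcr11 (chr10:80406822-80407071, minus strand, the 250 bases before the start) holds the ETS-type letters, starting 66 bases before the start. Its promoter also holds the NRF1-type core, which does not lie wholly within these 250 bases and is not marked.
Uqcr11: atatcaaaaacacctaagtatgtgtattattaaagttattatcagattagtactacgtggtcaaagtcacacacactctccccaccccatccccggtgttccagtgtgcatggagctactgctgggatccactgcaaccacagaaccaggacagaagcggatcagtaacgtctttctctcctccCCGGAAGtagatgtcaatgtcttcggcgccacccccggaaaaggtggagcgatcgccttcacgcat
Atp5l (chr9:44920743-44920992, minus strand, the 250 bases before the start) holds the NRF1-type core, starting 240 bases before the start, and the reverse complement of the ETS-type letters, starting 212 bases before the start.
Atp5l: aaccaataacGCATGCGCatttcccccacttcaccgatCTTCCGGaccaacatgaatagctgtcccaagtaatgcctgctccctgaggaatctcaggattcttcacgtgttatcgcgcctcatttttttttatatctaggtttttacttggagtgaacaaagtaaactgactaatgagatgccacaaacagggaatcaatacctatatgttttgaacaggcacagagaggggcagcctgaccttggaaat
Ndufc1 (chr3:51408915-51408944, minus strand) holds the YY1-type letters, from base 23 after the start.
Ndufc1: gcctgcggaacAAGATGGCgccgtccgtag

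The comparison of P28 with P14 covers the time from eye opening to the critical period. No respiratory chain probe set passed limma's test with all litters, where the background is 0.00483% (1 of 20724). An unadjusted p under 0.05 was found in 6 of 103 and in 1632 of all 20724 probe sets, a smaller share in the set than over all. In the means, 49 of 75 genes were higher at P28 and 26 (34.7%) lower, beside 46.0% of all genes lower. By complex, the medians were 0.16 in complex I, 0.15 in complexes II and III, 0.05 in complex IV and 0.02 in complex V. Without P14 litter 1 they were 0.09, 0.04, -0.23, 0.11 and -0.04 in complexes I to V, with 5 of 7 genes of complex III lower.

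All P28 litters lay above all P14 litters in 11 of 103 probe sets (10.7%, background 9.45%) and below in 4 (3.88%, background 8.41%). These shares are near or under their background, and without P14 litter 1 they were 17.5% (background 18.9%) and 15.5% (background 18.7%). The 11 included the complex I genes Ndufa13, Ndufa6, Ndufa8, Ndufaf3, Ndufaf8, Ndufb9, Ndufb10 and Ndufs7, and the 4 were for Ndufv2, Uqcrb, Atp5a1 and Atp5g1. Those of Ndufv2 and Atp5g1 were second probe sets, and on the probe sets kept for these genes P14 and P28 overlapped, with differences of 0.07 and 0.13.

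Between P14 and P60 lies the whole period covered. Of 103 respiratory chain probe sets, 2 fell, for Sdhd and Uqcrb, and none rose, where the background is 0.29% lower (60 of 20724 probe sets) and 0.106% higher. The median over 75 genes was -0.16, beside 0.05 over all genes, and 47 (62.7%) had a lower mean at P60, beside 45.5% of all genes. At an unadjusted p under 0.05 there were 12 of 103 respiratory chain probe sets and 3261 of all 20724, a smaller share in the set than over all. Without P14 litter 1, 9 of 102 fell (background 1.68%): those of Ndufab1, Ndufb6, Sdhd, Uqcr10, Uqcr11, Uqcrb, Atp5c1, Atp5l and Atp5mpl. For Atp5c1 this was a second probe set, which differed by -0.74 (adjusted p = 0.0289), while the kept one, described above, did not pass. In the restricted set 6 fell (background 1.41%), for Sdhd, Uqcr10, Uqcr11, Uqcrb, Cox6c and Atp5mpl. Ndufab1, the mitochondrial acyl carrier protein, differed by -0.69 (adjusted p = 0.0487) without P14 litter 1 and by -0.48 (limma adjusted p = 0.289) with all litters. A second Ndufab1 probe set, on chip C, went the other way, by 0.68 without P14 litter 1 and 0.47 with all litters. Its mean at P14 was below the Bacillus level of that chip.

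All P60 litters lay below all P14 litters in 9 of 103 probe sets (8.74%, background 6.42%) and above in 1, of Cox6b2 (0.971%, background 6.61%). Without P14 litter 1 these counts were 28 (27.2%, background 14.9%) and 4 (3.88%, background 13.9%). The moderated F-test over the 3 ages called no respiratory chain probe set (background 0.111%). Uqcrb had the lowest adjusted p in it, 0.0799. In the F-test, 11 of 103 respiratory chain probe sets had an unadjusted p under 0.05, beside 2337 of all 20724, which is a similar share. The 3 comparisons share litters, so their values are not independent of each other.

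Genes with several tested probe sets often gave mixed directions. Among 22 such genes, the probe sets had the same sign in 13 from P14 to P28, in 9 from P28 to P60 and in 9 from P14 to P60. Signs were mixed in 9, 13 and 13 of them. From P28 to P60 Ndufa9, for example, differed by -0.36 on chip A and by 0.16 on chip C. Of the 103 tested probe sets, 34 carry a suffix that marks shared or relaxed probe design, 19 of them the suffix f. Medians and counts out of 75 genes use the 1 probe set kept for each gene, and counts out of 103 use every tested probe set.

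Other mitochondrial genes were listed for comparison. None of their tested genes passed the test in any comparison. Few passed over all 11240 tested genes: 1 from P14 to P28, 0 from P28 to P60, and 17 higher and 38 lower from P14 to P60. From P28 to P60, genes of the TCA cycle had a median of -0.21 (13 of 17 lower) and genes of protein import -0.25 (11 of 16 lower). In the TCA list, citrate synthase (Cs) differed by -0.05 and Idh3b, a subunit of isocitrate dehydrogenase, by -0.36. In the import list, the small chaperone Timm13 differed by -0.74 and the translocase subunit Timm23 by -0.28.

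The other lists lay nearer to 0 or above it. Assembly factors, which include the Ndufaf genes of the set, had a median of -0.10 (15 of 25 lower), carriers and cytochromes -0.04 (8 of 14), glycolysis -0.06 (8 of 13) and antioxidant enzymes -0.04 (6 of 8). Regulators of biogenesis and mitochondrial DNA upkeep had 0.15, with 2 of 12 lower. Among these, Ppargc1a, a coactivator of mitochondrial genes, differed by 0.26, and Tfam, which packages mitochondrial DNA, by -0.08. The lists were not matched for brightness, and some of the regulators were dim, such as Ppargc1a with signals of 232 to 396. Over all genes, the dimmest class had a median of 0.09, the next 0.04 and the brightest -0.11. The part of brightness in the differences between lists was not tested.

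Cell type markers were read beside these results, and their part in them was not tested. The excitatory neuron list, which defines the tissue, had summed signals over 5 of 6 listed genes of 15967 to 23528 at P14, 16241 to 18688 at P28 and 13416 to 21637 at P60. Slc17a7, Nrgn and Tbr1 carried most of these sums. Camk2a had 30.8 in P14 litter 1 and 83.7 and 65.6 in P60 litters 2 and 3. Neurod6 had 96.9 in P14 litter 3 and 88.2 in P60 litter 2. These values lie under 98.4, the lowest Bacillus level of the 3 chips. Between P28 and P60, where most respiratory chain genes were lower, the median over these neuron markers was -0.01, over 7 astrocyte markers 0.09, over 5 oligodendrocyte markers -0.06 and over 6 interneuron markers -0.23. It was -0.49 over 2 OPC markers (progenitors of oligodendrocytes), -0.15 over 4 microglia markers, 0.46 over 4 endothelial markers, -0.15 over 3 blood markers and -0.27 over 2 choroid plexus markers. None of these genes passed the test between P28 and P60, where 0 of all 11240 tested genes did.

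Between P14 and P28 larger shifts stood in some of these lists. The medians were 1.32 over oligodendrocyte markers, 1.19 over blood markers and 1.07 over choroid plexus markers, and 0.11 over excitatory neuron markers. Summed oligodendrocyte signals over 5 of 7 listed genes were 3895 to 7356 at P14, 8712 to 14281 at P28 and 9823 to 13926 at P60. Summed blood signals over 3 of 4 listed genes were 5272 to 23993 at P14, 24816 to 34303 at P28 and 17478 to 51144 at P60. These medians and P14 sums include P14 litter 1 and were not computed without it. In that litter the choroid plexus markers Clic6 and Folr1 had 64.1 and 320. P14 litters 2 and 3 had 460 and 532 for Clic6, and 253 and 132 for Folr1. At P28 Clic6 had 438, 940 and 262. The blood marker Hba-a1 had 4739 in P14 litter 1 against 13285 and 22992, and the oligodendrocyte marker Mobp 3376 against 441 and 717.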

How the data were processed

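V1 RNA of 10 litters was measured on 3 Affymetrix chip types. The deposited values are signal intensities that come from MAS5 according to the processing notes of the submitters, who give no version there. Each array has a 2% trimmed mean of 500, and no further scaling was applied. The 2nd litter number in each title was taken as the litter. Every p-value assumes separate litters; if these are not, it measures only the spread between these samples.

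Symbols came from the array annotation, and all 80 symbols of the set were the same after an update through the gene ID. Before log2, the 20th percentile of a chip type's signals (38.6, 57.8 and 44.0 on chips A, B and C) was added. The 20724 probe sets tested exceeded the chip median (207, 252 and 183) on 3 or more arrays. Each chip type was fitted separately on all litters with limma 3.58.1 in R 4.3.3 (lmFit, eBayes with a variance trend), with age as the only term. P-values of the 3 chip types were pooled for Benjamini-Hochberg adjustment, at a threshold of 0.05. For each gene 1 probe set was kept, from chip A, then B, then C, with the highest mean log2. The fit was tested on simulated data.

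Named genes were the 3 markers, all Sdh genes and probe sets past the threshold. Per complex, the 2 genes with the largest difference in each comparison and the one with the brightest probe set were added. Of the genes whose probe sets disagree, only some are named. Other genes were named as examples, after their values were seen. The members and lists were chosen with earlier results of these data known. Alternatives were other constants, filters, scaling, eBayes settings, array weights, adjustment within chips, a replicate block, fewer ages and leaving out litters.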

Additional observations from a re-analysis of the deposited data

Results flagged for a closer look

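Within the 4 litters of P60, 1 litter lay far from the other 3 in 2 of 29 groups of values looked at, where chance gives about 1 in 20. Sdhd had a signal of 814 in P60 litter 1, against 1222, 1256 and 1231 in litters 2 to 4. Without that litter the log2 difference of Sdhd between P14 and P60 was -1.04 (limma adjusted p = 0.106). Atp5a1, the alpha subunit of ATP synthase, had 9413 in P60 litter 4, against 8363, 8337 and 8516 in litters 1 to 3.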

How the results depend on the processing

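The median log2 difference over the respiratory chain genes kept its sign in all 23 alternatives: 0.04 to 0.17 from P14 to P28, -0.39 to -0.24 from P28 to P60 and -0.23 to -0.05 from P14 to P60. No respiratory chain probe set passed from P28 to P60 in any of them. Some of these alternatives could not move a median. Other eBayes settings and adjustment within chips change no log2 difference, and leaving out a P14 litter changes none from P28 to P60. The count of 2 respiratory chain probe sets past the threshold from P14 to P60 was 1 without a filter on low signal and 1 after quantile normalisation, 0 without the variance trend and 0 with only the 2 ages, 20 with array weights, 6 in the restricted set, and 0 to 9 with 1 litter left out. From P14 to P28 it was 2 with array weights and 1 in the restricted set, and in the F-test 19 with array weights, 3 in the restricted set and 0 to 3 with 1 litter left out.

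Over all probe sets, the count from P14 to P28 (main 1) was 2 with the 40th percentile as constant, 5 with adjustment within each chip type, 0 with only the 2 ages, 1163 with array weights, 214 in the restricted set and 0 to 26 with 1 litter left out. From P28 to P60 (main 0) it was 0 to 1 with 1 litter left out. From P14 to P60 (main 82) it was 51 without the trend, 0 with only the 2 ages, 3621 with array weights, 441 in the restricted set and 0 to 495 with 1 litter left out. In the F-test (main 23) it was 15 after quantile normalisation, 6 without the trend, 3024 with array weights, 226 in the restricted set and 0 to 134 with 1 litter left out. The highest count with 1 litter left out was without P14 litter 1 in each case.

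The replicate block, the litter number as a term, gave 0 respiratory chain probe sets from P14 to P60, and 0 of all probe sets from P14 to P28, from P14 to P60 and in the F-test. Same-numbered litters did not deviate together: 27 correlations ran from -0.08 to 0.16, and 4 were above 0.1.

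Some values without a call changed sign. From P14 to P28, Ndufc1 was 0.018 after quantile normalisation and -0.20 to 0.17 with 1 litter left out. Ndufb6 was -0.18 with array weights, -0.23 in the restricted set and -0.23 to 1.29 with 1 litter left out. Uqcr11 was -0.46, -0.55 and -0.55 to 2.35 in the same settings, and Atp5e was -0.052 in the restricted set and -0.052 to 1.71 with 1 litter left out. From P14 to P60, Sdhb was -0.14 with array weights, -0.097 in the restricted set and -0.14 to 0.26 with 1 litter left out. Among the fits with 1 litter left out, the lowest values of Ndufb6, Uqcr11, Atp5e and Sdhb were those without P14 litter 1. The cause was not tested.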
